A study of Mus musculus with 18 samples.

Results

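Osmr, Il6st, Stat3, Socs3, Bcl3 and Il1rn are 6 genes of interleukin-6 family signalling and of the feedback on NF-kB and interleukin-1 signalling, and they were followed here across whole kidneys of mice with and without Aprt. They were taken as every probe set whose single gene symbol in the platform annotation is one of the 6, which gave 9 probe sets of the 10833 with a single symbol, and 6 genes of 8251. The 6 genes were selected on their signal in Aprt KO kidneys against controls at 7 days, so their 7-day genotype values are a description and carry no test. Each of the 18 arrays held kidney RNA of 1 C57 mouse. The groups were 3 Aprt KO mice and 3 control littermates at 1 month, and 6 Aprt KO mice and 6 control littermates at 7 days, in 9 pairs of matched sex. The series text gives the genotypes as Aprt-/- and Aprt+/+, and no agent was given to any group. How the Aprt allele was made is not given in the sources used here. Aprt codes for the adenine salvage enzyme of purine metabolism, and without it adenine is turned into a compound that dissolves poorly in urine and crystallises in kidney tubules.

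Cytokines of the interleukin-6 family bind a private receptor chain, such as Osmr for oncostatin M, and the signalling chain shared by the family, encoded by Il6st. Kinases of the JAK family then phosphorylate the transcription factor Stat3, which enters the nucleus and switches on target genes, among them Socs3, whose protein binds the receptor complex and stops the kinases. NF-kB is switched on by interleukin-1 and tumour necrosis factor. Bcl3 is a nuclear member of the IkB family that binds NF-kB subunits on DNA, and Il1rn encodes the antagonist that occupies the interleukin-1 receptor without signalling. Both branches are studied in kidney as part of the response of tubules and of infiltrating leukocytes to injury.

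The promoters of the 2 feedback genes that held a STAT or NF-kB motif are shown, since Socs3 is known as a STAT3 target and Bcl3 as an NF-kB target. In the RefSeq annotation of GRCm38.p6, Osmr lies on chromosome 15, Il6st on chromosome 13, Stat3 and Socs3 on chromosome 11, Bcl3 on chromosome 7 and Il1rn on chromosome 2, and all 6 matched the promoter table. Each promoter there runs from 250 bases before to 50 after an annotated start. The search covered both strands for the STAT palindrome TTCNNNGAA, the NF-kB consensus by its name, and the AP-1 letters TGANTCA. The Socs3 promoter lies at chr11:117969317-117969616 on the minus strand, inside the Socs3 gene record, and capitals mark the STAT palindrome, which begins 154 bases before the start. The Bcl3 promoter lies at chr7:19822706-19823005 on the minus strand, and capitals mark the NF-kB match, which begins 2 bases after the start base. Both are written 5′ to 3′.
Socs3 promoter: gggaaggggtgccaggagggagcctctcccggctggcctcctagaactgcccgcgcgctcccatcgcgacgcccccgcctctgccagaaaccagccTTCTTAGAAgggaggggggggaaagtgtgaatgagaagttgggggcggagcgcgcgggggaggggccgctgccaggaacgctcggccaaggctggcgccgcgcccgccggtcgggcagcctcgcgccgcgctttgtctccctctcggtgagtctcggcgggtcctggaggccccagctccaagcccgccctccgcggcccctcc
Bcl3 promoter: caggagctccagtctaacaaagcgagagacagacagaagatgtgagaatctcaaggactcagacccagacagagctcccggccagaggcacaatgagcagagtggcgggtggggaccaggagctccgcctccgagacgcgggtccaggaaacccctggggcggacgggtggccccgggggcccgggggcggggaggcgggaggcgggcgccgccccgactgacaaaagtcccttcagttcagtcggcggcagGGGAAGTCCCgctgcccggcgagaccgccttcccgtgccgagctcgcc
The STAT palindrome is found in 8.33% of the 32544 distinct promoter sequences of this length and the NF-kB consensus in 5.84%. The AP-1 letters, found in 7.79%, are in the Osmr promoter and in 1 of the 3 Il1rn promoters, and the windows of Il6st and Stat3 hold none of the 3 motifs. No motif overlapped another in these windows, and a match is a description of the letters only.

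Aprt itself was read first, as a check of the labels. At 1 month its brightest probe set read 86.5, 57.8 and 52.3 in the arrays labelled Aprt KO 1 to 3, against 109.5, 108 and 104 in controls 1 to 3. At 7 days it read 55.4, 53.8, 58.1, 135, 41.9 and 56.5 in the arrays labelled Aprt KO 1 to 6, against 66.3, 51.3, 148, 138, 141 and 148 in controls 1 to 6. The arrays labelled 1-month KO 1, 7-day KO 4 and 7-day controls 1 and 2 fell past the midpoint of the 2 group medians, towards the opposite genotype. Every direction below therefore runs between arrays labelled Aprt KO and arrays labelled control, and the fits of the members without these 4 arrays are given beside the main ones. Litter 4 also stood apart at 7 days, with highest signals of 10167 in its KO array and 10767 in its control, against 25718 or more on the other 10 arrays of that age. Kidney markers were present on all arrays: the 9 proximal tubule markers summed to between 25035 and 102008 on every array and none of them read below 350.3.

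The oncostatin M receptor Osmr was the one member whose genotype groups did not overlap at either age. At 1 month probe set 102255_at read 198, 187 and 191 in KO-labelled kidneys and 127, 135 and 119.8 in controls, so the groups did not overlap. All 3 pairs were higher in the KO mouse, and the means of 192 ± 5.38 and 127 ± 7.48 (SD, n = 3 each) stand at a ratio of 1.51. On the scale of log2(signal + 29), on which all differences here are given and which understates the change of dim genes, the difference was 0.50 (SE 0.28, 95% interval -0.08 to 1.08). It did not pass the test (limma adjusted p 0.9996 over 5744 genes, unadjusted p 0.0857), and it was 0.48 (SE 0.38) without the 4 arrays. At 7 days Osmr read 805, 751, 863, 635, 573 and 562 in KO-labelled kidneys and 113, 127, 202, 208, 90.1 and 66.5 in controls. The lowest KO array lay well above the highest control, in a difference of 2.21 (SE 0.19), and 2.20 without the 4 arrays. Whole kidneys were measured, so more cells of a type and more RNA per cell cannot be told apart.

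Il6st, the chain shared by the whole receptor family, stood at a higher signal in the 7-day KO kidneys, by a smaller step. At 1 month the brighter probe set 94345_at read 650.1, 817 and 933 in KO-labelled kidneys and 673, 709.6 and 759 in controls. These groups overlapped, and the difference of 0.15 (SE 0.13, 95% interval -0.13 to 0.42) was not called by limma (adjusted p 0.9996). Without the 4 arrays it was 0.24 (SE 0.17), and was not called either. At 7 days it read 1185, 1194, 1204, 1292, 1246 and 1054 in KO-labelled kidneys and 740.1, 885, 691, 852, 704 and 892 in controls, without overlap, a difference of 0.58 (SE 0.09) both with and, at an SE of 0.11, without the 4 arrays. The second probe set, 98349_at, gave overlapping groups at 7 days, with 224 to 456 in KO-labelled kidneys and 151 to 351 in controls. Its 7-day difference was 0.34 (SE 0.17), in the same direction in 6 of 6 pairs. At 1 month this set read 160.3 to 284 in KO-labelled kidneys and 161 to 236 in controls.

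Stat3, the transcription factor below these receptors, was measured by a pair of probe sets. At 1 month 99099_at read 1012, 1199 and 992 in KO-labelled kidneys and 1048, 1123 and 1044 in controls, a difference of -0.01 (SE 0.13, 95% interval -0.29 to 0.27). The sets of values lay on top of each other, limma gave an adjusted p of 0.9996, and the difference was 0.01 (SE 0.17) without the 4 arrays. At 7 days it read 1556, 1497, 1345, 2079, 1529 and 1739.8 in KO-labelled kidneys and 1098, 929.8, 983, 1216, 1167 and 1017 in controls. No KO array fell into the control range, and the difference was 0.58 (SE 0.09), with 0.49 (SE 0.11) without the 4 arrays. The other set, 99100_at, separated the 7-day groups further, with 874 to 1559 in KO-labelled kidneys and 502 to 783 in controls, a difference of 0.86 (SE 0.13). At 1 month that set read higher in the KO mouse of all 3 pairs, by 1.08 to 1.20 times, within overlapping groups and at a difference of 0.16 (SE 0.18).

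Socs3, the inhibitor that Stat3 induces, stood higher in 7-day KO kidneys by both of its probe sets. At 1 month 92232_at read 16.4, 19.3 and 13.6 in KO-labelled kidneys and 25.2, 19.5 and 10.6 in controls. All 6 of these signals lay below 29, the 20th percentile of all values, and the difference was -0.05 (SE 0.25). At 7 days the same set read 711, 519.5, 524, 653, 596 and 617 in KO-labelled kidneys and 29.7, 20.8, 40.9, 91.2, 22.3 and 34.0 in controls. The highest control was control 4, and the KO minus control difference was 3.26 (SE 0.18), against a ratio of mean signals of 15.1. The brighter set, 162206_f_at, carries the suffix that Affymetrix gives to probe sets shared within a sequence family, so its signal may hold related transcripts. It represents Socs3 in the gene-level fit. At 1 month it read 70.8, 128 and 101 in KO-labelled kidneys and 58.4, 122 and 68.3 in controls, higher in the KO mouse of 3 of 3 pairs. That difference of 0.22 (SE 0.21, 95% interval -0.23 to 0.67) was not called by limma (adjusted p 0.9996), and it was 0.24 (SE 0.27) without the 4 arrays. At 7 days it read 571, 489, 776, 422, 497 and 503 in KO-labelled kidneys and 118, 113, 163, 151, 129.9 and 141 in controls, a difference of 1.78 (SE 0.15), and 1.74 (SE 0.18) without the 4 arrays. The 7-day groups did not overlap in either set, and the sets differed in the size of the step.

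Bcl3, the nuclear IkB protein, had the tightest 7-day control signals of the feedback genes and a split by pair at 1 month. At 1 month 102239_at read 54.5, 254 and 199.9 in KO-labelled kidneys and 50.1, 183 and 303 in controls. The low values were both mice of pair 1, which is the female pair, and the high values were the 4 males, so sex and litter cannot be told apart. The genotype difference was -0.02 (SE 0.20, 95% interval -0.44 to 0.41), higher in the KO mouse of 2 of 3 pairs (limma adjusted p 0.9996), and -0.06 (SE 0.27) without the 4 arrays. At 7 days Bcl3 read 319, 588, 488, 389.7, 363 and 394 in KO-labelled kidneys and 49.3, 58.5, 62.3, 49.9, 59.5 and 54.3 in controls. In the 7-day controls the order of the sexes was the opposite and the gap small, with 58.5 to 62.3 in females and 49.3 to 54.3 in males. The 7-day difference was 2.40 (SE 0.14), with a ratio of mean signals of 7.61, and 2.37 (SE 0.18) without the 4 arrays.

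Il1rn, the interleukin-1 receptor antagonist, was near the floor of the arrays outside the 7-day KO group. At 1 month 93871_at read 16.9, 80.1 and 16.4 in KO-labelled kidneys and 13.5, 35.6 and 40.6 in controls. One KO mouse of the 3 stood above the controls, and the difference of 0.08 (SE 0.37, 95% interval -0.69 to 0.85) was not called by limma (adjusted p 0.9996), and it was 0.07 (SE 0.50) without the 4 arrays. At 7 days it read 351, 408, 278, 391, 432 and 334 in KO-labelled kidneys and 37.9, 26.1, 16.3, 99.1, 62.4 and 16.5 in controls. The lowest KO value lay far above the highest control, and the difference was 2.55 (SE 0.26), with 2.47 (SE 0.34) without the 4 arrays. Control 4 was the highest 7-day control for Il1rn, Osmr, both Stat3 sets and Socs3 92232_at. Without pair 4 the 7-day difference was 2.72 for Il1rn, 2.36 for Osmr, 1.87 for Socs3, 0.55 for Stat3, 2.39 for Bcl3 and 0.58 for Il6st.

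**Figure D1:**
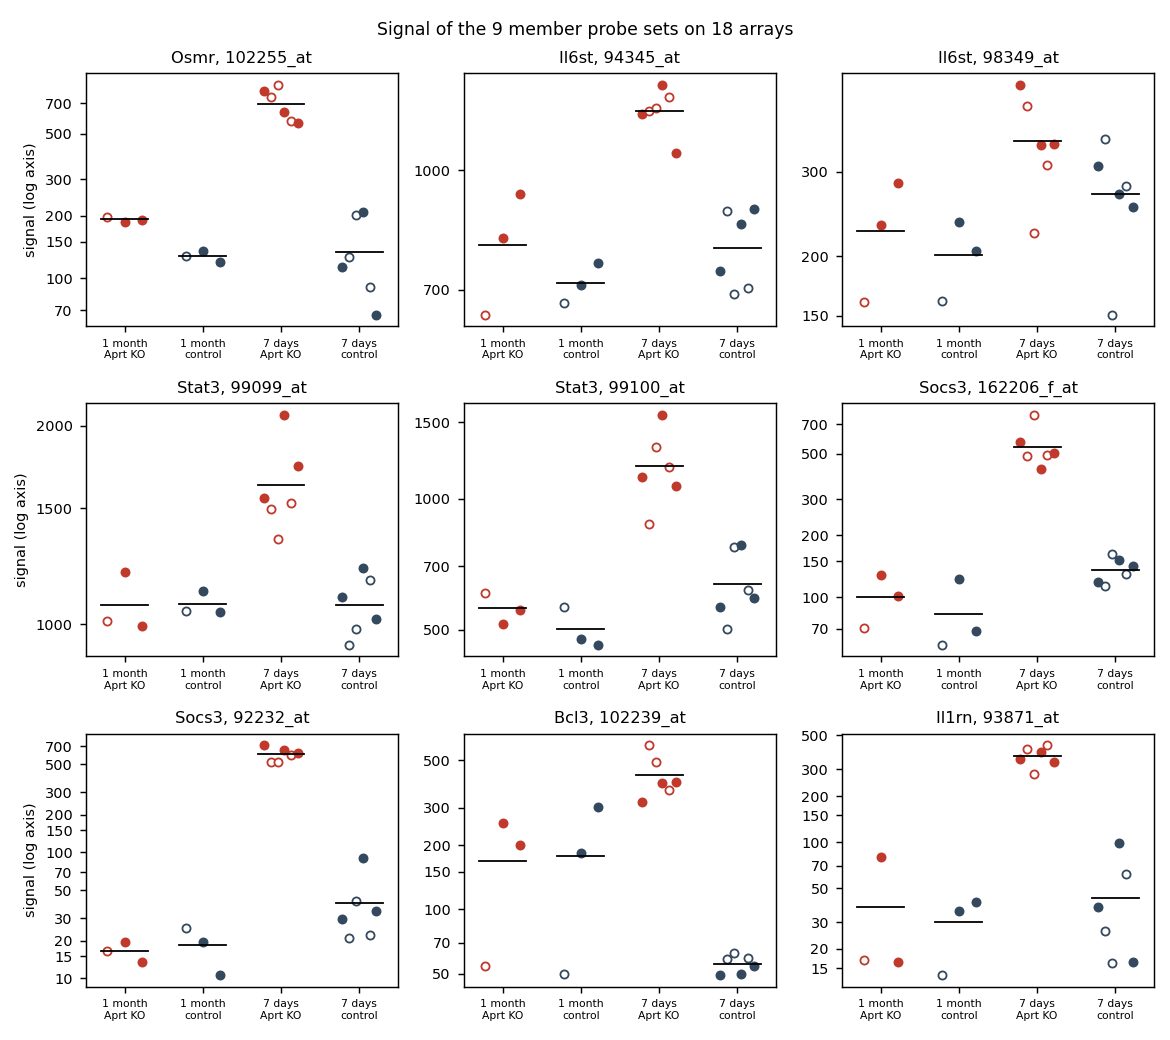
Signal of each of the 9 probe sets on each array (log axis), by age and genotype label. Filled circles are males, open circles are females and black lines are group means. The 7-day KO-labelled arrays stand above every 7-day control in 8 of the 9 panels, Il6st 98349_at being the exception.

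At 1 month none of the 6 genes passed the test in either direction, where 0.296% of the 5744 genes were called higher and 0.0174% lower. None of the 6 had an unadjusted limma p under 0.05 without the litter block, 1 of the 6 had one with it, and their median difference was 0.11, beside a median of 0.00 over all genes. Groups that did not overlap, with the KO arrays higher, were seen in 4.2% of all genes at this age and in 1 of the 6, Osmr. With the litter as a block the Osmr difference kept its size at a smaller standard error of 0.19, and its limma p was 0.0200 unadjusted and 0.286 adjusted. At 7 days, the contrast that chose the genes, all 6 stood above the controls without overlap by their brightest probe sets, beside 2.05% of all genes. Their differences ranked from 6th for Il1rn to 154th for Il6st among the 5744 genes, and the median of the 6 was 1.99.

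**Figure D2:**
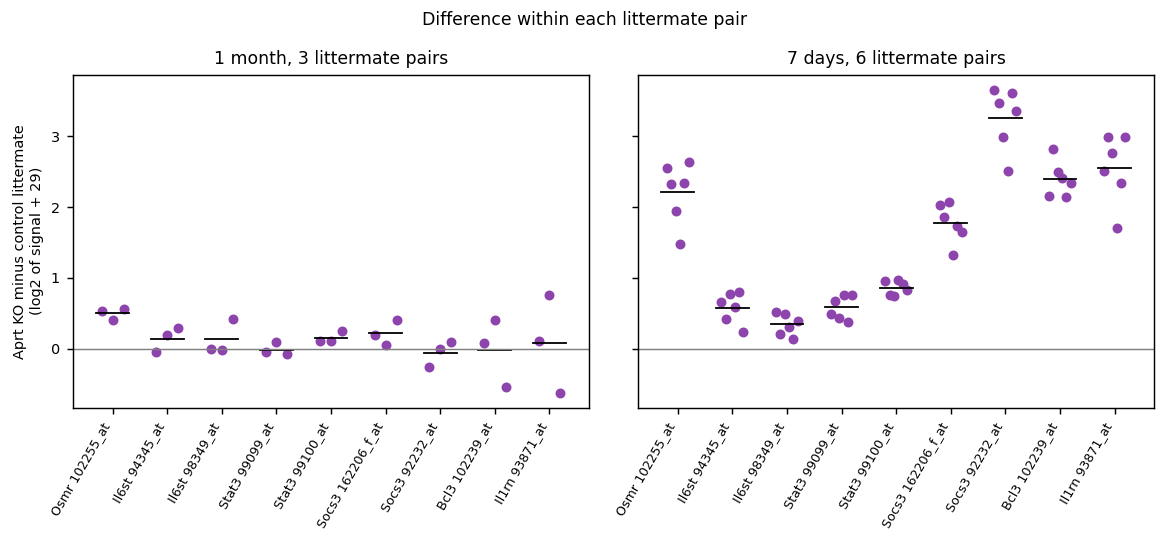
Difference between each mouse labelled Aprt KO and its control littermate for the 9 probe sets, in log2 of signal + 29, at 1 month (left, 3 pairs) and at 7 days (right, 6 pairs). Points are pairs in replicate order and black lines are their means. Every 7-day pair lies above 0, and at 1 month all 3 pairs lie above 0 for Osmr (0.40 to 0.56), Stat3 99100_at and Socs3 162206_f_at.

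Within the 7-day KO group the 6 mice spread most for Il6st 98349_at, whose highest array was 2.04 times its lowest. The highest array was 1.23 times the lowest for Il6st 94345_at, 1.54 times for Osmr, 1.55 times for Stat3 99099_at and 1.56 times for Il1rn. It was 1.84 times the lowest for both Bcl3 and Socs3 162206_f_at, and 1.37 times for Socs3 92232_at. The order of the mice was not shared: KO 3 was highest for Osmr and for Socs3 162206_f_at but lowest for Il1rn and Stat3 99099_at, KO 4 was highest for Stat3 and Il6st 94345_at, and KO 2 was highest for Bcl3. By littermate pair the 7-day ratio of signals ran from 3.05 to 8.45 for Osmr, 6.10 to 10.05 for Bcl3, 3.94 to 20.2 for Il1rn and 7.15 to 26.8 for Socs3 92232_at. It ran from 1.18 to 1.77 for Il6st 94345_at and from 1.31 to 1.71 for Stat3 99099_at.

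The course from 7 days to 1 month in control kidneys was not used to choose the genes, although its 7-day controls also stand in the contrast that did. Bcl3 rose with age in controls and Socs3 fell, and the other 4 were not called. In this comparison limma called 14.8% of all genes higher and 26.1% lower, so 2 calls among 6 genes lie within the background of 40.9%. Bcl3, Socs3 and Il1rn also passed the filter on dim signals only through the 7-day KO arrays. With no such filter the limma adjusted p of Bcl3 and Socs3 was 0.00274 and 0.0130. Bcl3 read 50.1, 183 and 303 in 1-month controls and 49.3 to 62.3 in 7-day controls, a difference of 0.79 (SE 0.18, limma adjusted p 0.00163). The groups overlapped, because the female 1-month control lay within the 7-day range. Without 1-month pair 1 the Bcl3 difference was 1.65 (limma adjusted p 7.65e-06), and without 1-month control 3 it was 0.62 (adjusted p 0.0148).

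Socs3 162206_f_at read 58.4, 122 and 68.3 in 1-month controls and 113 to 163 in 7-day controls, a difference of -0.68 (SE 0.19, limma adjusted p 0.00799). That call did not hold without 1-month control 1 (limma adjusted p 0.0762), without 1-month control 3 (0.0542) or after quantile normalization (0.0624). The probe set 92232_at read 10.6 to 25.2 in 1-month controls and 20.8 to 91.2 in 7-day controls, a difference of -0.45 (SE 0.22, limma adjusted p 0.172). Osmr, Stat3 and Il6st differed by 0.02, -0.00 and -0.19 with age in controls, and Il1rn by -0.32 (SE 0.32), beside an all-gene median of -0.11 that moves to 0.00 under quantile normalization. Without the 4 arrays the age differences in controls were 0.76 for Bcl3 and -0.76 for Socs3, and these were again the only calls among the 6.

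In kidneys labelled Aprt KO all 6 genes read lower at 1 month than at 7 days without overlap by their brightest probe sets, beside 22.1% of all genes. The second Il6st set, 98349_at, overlapped, at 160.3 to 284 at 1 month and 224 to 456 at 7 days. These values share the 7-day KO arrays that chose the genes and carry no test. The difference between 1 month and 7 days in KO kidneys was -2.79 for Il1rn, -2.23 for Socs3, -1.69 for Osmr, -1.62 for Bcl3, -0.62 for Il6st and -0.60 for Stat3. The genotype difference at 1 month minus that at 7 days was -2.47 (SE 0.45) for Il1rn, -2.41 (SE 0.25) for Bcl3, -1.71 (SE 0.34) for Osmr and -1.55 (SE 0.26) for Socs3. It was -0.59 (SE 0.16) for Stat3 and -0.43 (SE 0.16) for Il6st. For Osmr the order of the group means was 7-day KO, 1-month KO, 7-day control and 1-month control, and the last pair did not differ beyond their spread. For Stat3 99099_at the 3 groups other than 7-day KO had means from 1068 to 1072 with standard deviations of 44.4 to 114.

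The rest of the circuit was followed through 145 listed genes, of which 115 were on the array with a single symbol and 82 passed the filter on dim signals. At 7 days limma called 23 of the 82 higher in KO-labelled kidneys, which is 28.0%, beside 2.54% of all genes, and 1 lower, beside 0.679%. The lists were chosen with earlier results of these data known, so this share is a description. Among those called higher, Ccl2, Cxcl1, Fos and Birc3 had group means under the filter level of 118.6 outside the 7-day KO group. These genes passed the filter only through that group. So did Nfkbie and Nfkbiz, whose signals averaged below the filter level over all arrays outside it. Their means in 7-day controls, 1-month KO-labelled kidneys and 1-month controls were 102, 116 and 130 for Nfkbie. For Nfkbiz they were 125, 86.7 and 70.2. With the litter as a block 35 were called higher and 2 lower. Without the 4 arrays limma called 10 higher, and without pair 1 or pair 5 it called 14. At 1 month limma called 1 of the 82 higher, beside 0.296% of all genes, and 0 lower, with 4 higher and 0 lower at an unadjusted p under 0.05. In controls 7 of the 82 were higher and 13 lower at 1 month than at 7 days, and after quantile normalization these counts were 9 and 8. Without 1-month pair 1 the higher count was 4, and without 1-month control 1 it was 2. Macrophage markers moved with the 7-day counts, as given further on, and their part in them was not tested.

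Of the 9 listed ligands of the family 4 were on the array with a single symbol and 2 passed the filter on dim signals. Il6, the founding cytokine, read 13.2 to 57.3 in 7-day KO-labelled kidneys and 2.07 to 19.2 in 7-day controls. In the fit of all probe sets its difference was 0.71 (SE 0.20), not called by limma (adjusted p 0.0950). At 1 month Il6 read 3.10 to 24.6 in KO-labelled kidneys and 4.35 to 24.3 in controls. Osm and Lif were not analysed here, and of the listed ligands that were tested, Ctf1 and Ebi3, none was called. Of 5 private receptor chains tested none passed in either genotype comparison. Il6ra, the receptor of interleukin-6, read 162 to 213 in 7-day KO-labelled kidneys and 26.0 to 129 in 7-day controls, higher in 6 of 6 pairs. Its difference of 0.84 (SE 0.25) had a limma adjusted p of 0.0816. Lifr, the receptor of leukaemia inhibitory factor, was lower in the KO mouse of all 6 pairs at 7 days by its brightest probe set, 104658_at, with means of 353 ± 35.4 in KO-labelled kidneys and 427 ± 35.0 in controls (SD, n = 6 each), but was not called (-0.26, limma adjusted p 0.240). By the same set Lifr rose with age in controls, by 1.00 (SE 0.12, limma adjusted p 3.02e-06). The Lifr probe sets disagreed. Set 103697_at averaged 361 in 1-month controls and 421 in 7-day controls, and its 7-day genotype difference was 0.19 (SE 0.19), while 104659_g_at averaged 557 in 1-month controls and 229.9 in 7-day controls.

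Among the kinases and other STATs 1 of 6 was called higher at 7 days, the leukocyte kinase Jak3 (0.62, SE 0.16, limma adjusted p 0.0454), and among the brakes on STAT signalling 1 of 9, the tyrosine phosphatase Ptpn1 (0.56, SE 0.11, adjusted p 0.00733). The other inhibitors of the Socs family that were tested and are named after their values were seen, Socs1, Socs2 and Socs5, were not called, with 7-day differences of -0.02, 0.64 and 0.07. The STAT3 target genes held 10 of 22 called higher at 7 days and 1 lower. Lcn2, an iron-binding lipocalin of injured tubules, averaged 3321 ± 441 in 7-day KO-labelled kidneys and 280.3 ± 85.5 in controls (SD, n = 6 each), a difference of 3.47 (SE 0.17, limma adjusted p 3.56e-10). The acute phase serpin Serpina3n differed by 2.66 (SE 0.17), the immediate early factor Fos by 1.74 (SE 0.21) and the adhesion molecule Icam1 by 1.48 (SE 0.17), each with a limma adjusted p of 3.52e-05 or less. The other 6 called higher, named after their values were seen, were Cp, Timp1, Junb, Cebpd, Cebpb and Hp, with differences of 0.74 to 1.22. The cell cycle gene Ccnd1, likewise named after its value was seen, was lower by a difference of -0.36 (SE 0.09, limma adjusted p 0.0354). At 1 month only Lcn2 of the 82 genes passed, with means of 263 ± 123 in KO-labelled kidneys and 59.7 ± 10.4 in controls (SD, n = 3 each), a difference of 1.62 (SE 0.23, limma adjusted p 0.00653). The Lcn2 call did not hold without 1-month pair 2 or pair 3.

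Of the NF-kB subunits and kinases 2 of 8 were called higher at 7 days, and both, Nfkb2 (0.63, SE 0.12) and Relb (0.74, SE 0.16), belong to the alternative branch of the pathway. Among the NF-kB inhibitors 3 of 8 were called higher. These were Ier3, an early response gene (1.16, SE 0.20), Nfkbiz, an atypical nuclear IkB protein that can also act as a coactivator (0.94, SE 0.19), and Nfkbie (0.71, SE 0.17), with limma adjusted p from 0.00179 to 0.0272. Nfkbiz and Nfkbie passed the filter on dim signals only through the 7-day KO arrays. Nfkbia, the classical inhibitor, averaged 1042 ± 147 in 7-day KO-labelled kidneys and 741 ± 137 in controls (SD, n = 6 each), and its difference of 0.48 (SE 0.16) was not called by limma (adjusted p 0.128). Tnfaip3, a ubiquitin-editing inhibitor, was dim, at 12.5 to 29.9 in 7-day KO-labelled kidneys and 5.77 to 15.7 in controls, and was not called. The NF-kB target genes held 5 of 12 called higher and none lower, with 0 lower at an unadjusted limma p under 0.05. Besides Icam1 these were the chemokines Ccl2 (2.40, SE 0.31) and Cxcl1 (1.78, SE 0.24), the macrophage growth factor Csf1 (0.72, SE 0.16) and Birc3, an inhibitor of apoptosis named after its value was seen (0.92, SE 0.24).

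**Figure D3:**
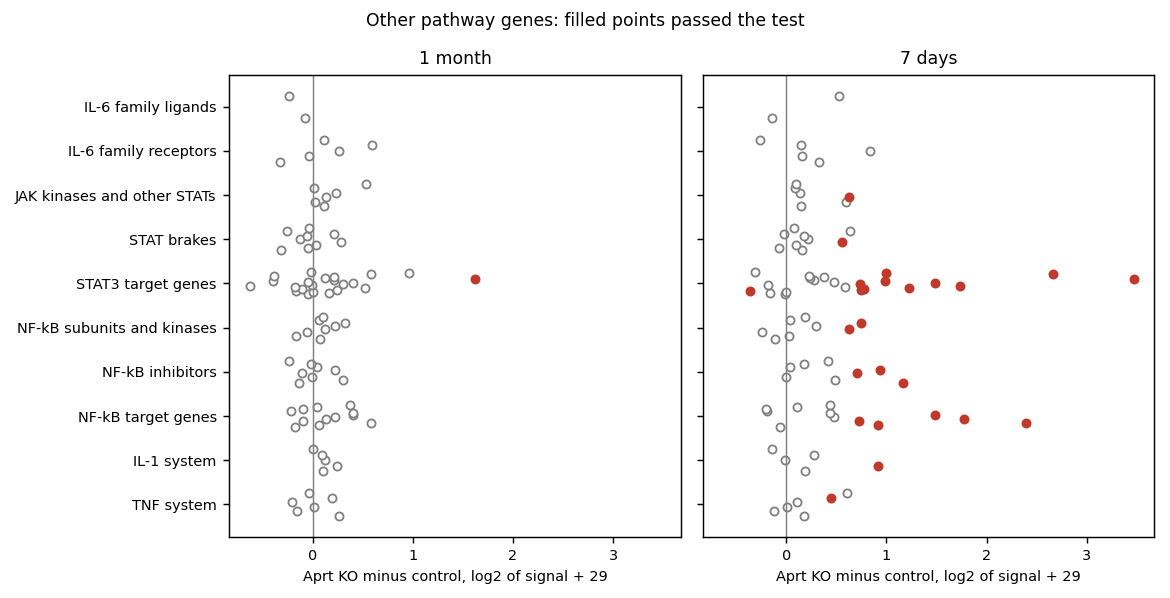
KO minus control difference (log2 of signal + 29) of each tested gene of the 10 pathway lists, at 1 month (left) and at 7 days (right). Filled points passed the limma test at an adjusted p under 0.05, and Icam1 appears in 2 lists. At 7 days filled points stand to the right of 0 in 8 of the 10 lists, with Ccnd1 the single one to the left, while Lcn2 is the one filled point at 1 month.

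The antagonist Il1rn can be set beside the other parts of the interleukin-1 system. Il1b, the secreted agonist, averaged 179 ± 47.6 in 7-day KO-labelled kidneys and 13.1 ± 2.90 in controls (SD, n = 6 each), with 131 to 246 against 10.4 to 17.1 by array. It failed the filter on dim signals, and in the fit of all probe sets its difference was 2.28 (SE 0.15, limma adjusted p 4.68e-08). At 1 month Il1b read 10.8 to 25.4 in KO-labelled kidneys and 9.91 to 18.4 in controls. Il1a, the other agonist, read 57.2 to 77.7 in 7-day KO-labelled kidneys and 9.56 to 58.1 in controls, and was not called (0.64, SE 0.24, limma adjusted p 0.376). The signalling receptor Il1r1 averaged 336 ± 64.6 in 7-day KO-labelled kidneys and 165 ± 38.0 in controls (SD, n = 6 each), a difference of 0.92 (SE 0.15, limma adjusted p 0.000951). At 1 month it averaged 129 ± 14.2 in KO-labelled kidneys and 104 ± 10 in controls (SD, n = 3 each), higher in 3 of 3 pairs but not called. Of 5 genes of the interleukin-1 list tested, Il1r1 was the 1 called at 7 days. Tnf read 25.03 to 122 in 7-day KO-labelled kidneys and 22.02 to 51.6 in controls and was not called (0.32, SE 0.24). Its receptor Tnfrsf1a was the 1 of 6 genes of the tumour necrosis factor list that was called higher (0.45, SE 0.12, limma adjusted p 0.0410). The calls of Tnfrsf1a, Jak3, Ccnd1 and Birc3 lay near the threshold and were lost in 22 of 39, 23 of 39, 21 of 39 and 19 of 38 alternatives. Those of Hp, Cebpb, Cebpd and Nfkbie were lost in 15 of 39, 14 of 39, 13 of 39 and 12 of 38.

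**Figure D4:**
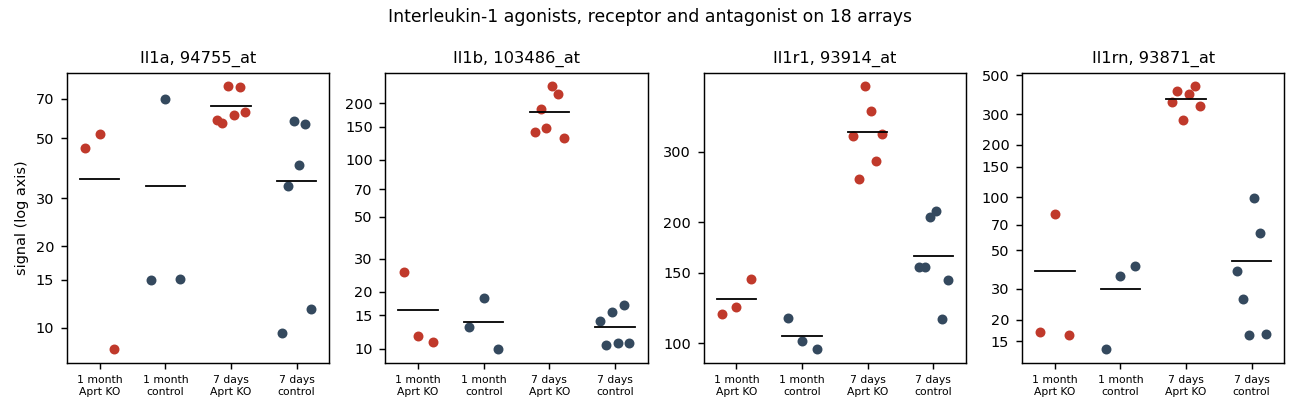
Signal on each array (log axis) of the interleukin-1 agonists Il1a and Il1b, the receptor Il1r1 and the antagonist Il1rn, by age and genotype label, with group means as black lines. The 7-day KO-labelled arrays stand above every 7-day control for Il1b, Il1r1 and Il1rn, and overlap them for Il1a.

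Genes whose profile over the 18 arrays was most like that of each member were named by the smallest root mean square difference between mean-centred log2 profiles. For Osmr they were Clu, C1qa and Cd14, at 0.38 to 0.41 log2 units. For Socs3 they were Icam1, Egr2 and Mgp, at 0.35 to 0.41. For Bcl3 they were Cd52, Cd14 and Egr2, at 0.56 to 0.68, and for Il1rn Egr2, Socs3 and Serpina3n, at 0.56 to 0.57. Il6st was most like Ptpn1, Dsg2 and Tspan4, at 0.18 to 0.19, and Stat3 like Nfkb2, Chchd5 and Ptpn1, at 0.18 to 0.20. The mean profile of the 6 was nearest to Cd14, Icam1, C1qa, Clu and Cd52, of which Cd14 encodes an endotoxin co-receptor, C1qa a complement component and Cd52 a leukocyte surface protein. Among the members themselves, Socs3 ranked 2nd of 5743 genes for likeness to Il1rn, and Osmr ranked 4th for likeness to Il1rn and to Bcl3. Il6st ranked 5th for Stat3, and Stat3 7th for Il6st. All arrays and the large step at 7 days are shared by these profiles, so likeness is a description.

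Markers of macrophages and monocytes moved with the members at 7 days. The summed signal of the 20 macrophage and monocyte markers was 9485 to 13624 in 7-day KO-labelled kidneys and 4184 to 7636 in controls, a ratio of means of 2.52. Limma called 13 of 14 tested higher, beside 2.54% of all genes. Cd53, which was called, and Mrc1, which was not, passed the filter on dim signals only through the 7-day KO arrays. At 1 month the sum was 4894 to 6712 in KO-labelled kidneys and 3900 to 5001 in controls, higher in 3 of 3 pairs, and limma called 0 of 14, with 7 higher at an unadjusted p under 0.05. KO 3 had the lowest sum of the 7-day KO group, with the lowest Il1rn and the highest Osmr, and KO 5 had the highest sum and the highest Il1rn. Control 3 had the highest sum of the 7-day controls and the lowest Il1rn. The 11 lymphocyte markers summed to 1771 to 2475 in 7-day KO-labelled kidneys and 1163 to 1415 in controls. Most of that step lay in Thy1, which alone averaged 1203 in KO-labelled kidneys and 438 in controls. The other 3 lymphocyte markers tested were not called. The 12 neutrophil markers summed to 1369 to 2041 in 7-day KO-labelled kidneys and 1085 to 1585 in controls. Of these lists 1 of 4 tested markers each was called higher at 7 days, 7 and 8 were too dim to be tested, and no marker read exactly 0. The neutrophil marker called, S100a8, averaged 260 in 7-day KO-labelled kidneys and 113 or less in each other group. It passed the filter on dim signals only through the 7-day KO arrays. Proximal tubule markers summed to 25035 to 43428 in 7-day KO-labelled kidneys and 34093 to 60275 in controls, lower in the KO mouse of 6 of 6 pairs. Limma called 0 of these 9 markers at 7 days, and 3 of them were higher in level in KO-labelled kidneys. At 1 month fibroblast and smooth muscle markers separated the genotypes, with 8835 to 10296 in KO-labelled kidneys and 4583 to 5033 in controls. Limma called 5 of 8 higher, beside 0.296% of all genes. At 7 days their sum was higher in the KO mouse of 6 of 6 pairs, and 2 of 8 were called higher. Adrenal and fat markers, which can reach a kidney sample with tissue around it, summed to 1070.0 to 3828 in 1-month KO-labelled kidneys and 628 to 1266 in controls, and 0 of 5 were called by limma, with 5 higher in level and 0 at an unadjusted p under 0.05. The part of these cells in the member signals was not tested.

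**Figure D5:**
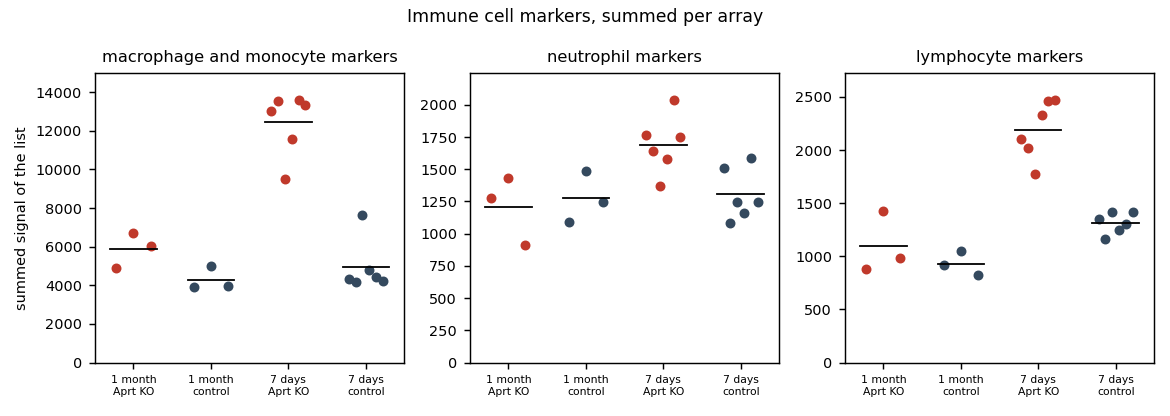
Summed signal per array of the macrophage and monocyte, neutrophil and lymphocyte markers (linear axes from 0), by age and genotype label, with group means as black lines. The 7-day KO-labelled arrays lie above every 7-day control for the macrophage and lymphocyte sums and overlap them for the neutrophil sum. In the lymphocyte sum Thy1 alone averaged 1203 in 7-day KO-labelled kidneys and 438 in 7-day controls.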

How the data were processed

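Kidney RNA was labelled with biotin and hybridised to Affymetrix arrays, 1 per mouse. The authors deposited 1 linear intensity per probe set and array. The submitters' processing notes name GCOS and MAS5 without versions. The trimmed mean was close to 500 on each array (499.8 to 499.9) and array medians ran from 160.1 to 216.4, and the number of arrays limits the precision. Signals were used without further normalization as log2(signal + 29), 29 being the rounded 20th percentile of all values. Genes needed a mean signal at or above the 40th percentile (118.6) and were represented by their brightest probe set, which kept 5744 of 8251 genes and all 6 members. R 4.3.3 and limma 3.58.1 were used to fit all 18 arrays together, and variances were moderated by eBayes with a trend on intensity. The design held the 4 groups and, within each age, sex, and 12 degrees of freedom remained. Tests were two-sided, with Benjamini-Hochberg adjustment over all 5744 genes and calls at an adjusted p under 0.05. Probe sets that were not the brightest or failed the filter were read from a fit of all probe sets. Members, gene lists and markers were chosen with earlier results of these data known. Named genes are the members, the ligands, receptors and inhibitors fixed for each list, and up to 4 called genes with the smallest p per list and genotype comparison. The likeness rule took the 3 nearest genes per member and the 5 nearest to their mean. Littermates are paired by the litter assigned to each mouse, which the sample titles and source names do not state. Their deviations from group means correlated at 0.239 to 0.673 in all 9 pairs, and 12 of 18 arrays correlated best with their own littermate. Sequences come from RefSeq, GRCm38.p6. Figures were drawn with matplotlib 3.10.9. Alternatives covered the pseudocount, filter, probe set rule, normalization, trend, sex terms, litter block, arrays of 1 age and left-out arrays or pairs.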

Additional observations from a re-analysis of the deposited data

Results flagged for a closer look

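Socs3 probe set 92232_at read 91.2 in 7-day control 4, and its gap to the next control was 0.71 of the range of the 6 controls, above Dixon's 95% critical value of 0.625. Of 18 groups of 6 arrays tested 1 was flagged, and chance flags about 1 in 20.

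The genotype difference at 1 month minus that at 7 days passed the interaction test for 3 of the 82 pathway genes, in limma with adjustment over all genes, beside 23 of all 5744 genes (0.4%). The lists were chosen with earlier results of these data known, and the test uses the same 7-day KO arrays on which the 6 members were selected, so the count is a description. It was -2.37 for Fos (limma adjusted p 0.00412), with genotype differences of -0.63 at 1 month and 1.74 at 7 days. It was -2.08 for Serpina3n (limma adjusted p 0.00409), with 0.58 at 1 month and 2.66 at 7 days, and -1.85 for Lcn2 (limma adjusted p 0.00412), with 1.62 at 1 month and 3.47 at 7 days.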

How the results depend on the processing

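The genotype differences of the 6 members at 7 days kept their direction under every alternative run. That contrast chose the genes, so this is a description. With a pseudocount of 112, the 40th percentile, they were smaller for Osmr (1.74), Socs3 (1.39), Bcl3 (1.66) and Il1rn (1.64). With a pseudocount of 1 they were larger for Bcl3 (2.88) and Il1rn (3.35), and the mean over probe sets gave 2.52 for Socs3. At 1 month no alternative called a member. Values near 0 changed sign there for Stat3, to 0.073 with the mean over probe sets and 0.0098 without the 4 arrays whose Aprt level went against their label, and within ranges over left-out arrays or pairs of -0.091 to 0.060 for Stat3, -0.23 to 0.25 for Bcl3 and -0.27 to 0.45 for Il1rn.

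For age in controls Osmr was -0.0060 with a pseudocount of 112 and -0.016 without the 4 arrays, and Stat3 was 0.043 after quantile normalization and 0.0100 without sex terms. Socs3 was -0.47 after quantile normalization and no longer called. With left-out arrays or pairs the ranges were -0.13 to 0.17 for Osmr, -0.039 to 0.050 for Stat3, -0.46 to 0.0049 for Il1rn and -0.83 to -0.44 for Socs3, which was not called without pair or control 1 or 3 of 1 month. For age in KO kidneys a pseudocount of 1 gave -2.55 for Socs3, -1.91 for Bcl3 and -3.84 for Il1rn, and one of 112 gave -1.67, -1.16 and -1.74. The mean over probe sets gave -3.00 for Socs3 and -0.79 for Stat3, and the fit with no sex terms -1.34 for Bcl3. Left-out arrays or pairs gave -1.69 to -0.81 for Bcl3, -0.69 to -0.44 for Il6st and -2.31 to -1.98 for Socs3. The genotype-by-age value was -2.89 for Bcl3 and -3.29 for Il1rn with a pseudocount of 1, -1.26, -1.68 and -1.58 for Socs3, Bcl3 and Il1rn with one of 112, -2.43 for Socs3 with the mean over probe sets, and -2.62 to -2.15 for Bcl3 with left-out arrays or pairs.

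Of the 82 pathway genes, the count called higher at 7 days was 23, and it was 13 with a filter at the 60th percentile, where fewer genes were tested, 10 without the 4 arrays, and 14 to 28 with left-out arrays or pairs. The replicate block raised it to 35 with litter as a fixed block and 37 with a random block, with 2 lower, and over all genes the fixed block raised the calls at 7 days to 278 higher and 222 lower, against 146 and 39, and at 1 month to 72 and 7, against 17 and 1. It changed no member's call. The 1 call lower at 7 days was 0 with the mean over probe sets, with no intensity trend and with arrays of 1 age. It was also 0 without the 4 arrays and in 17 of 27 fits with left-out arrays or pairs. The 1 call higher at 1 month was 0 with the mean over probe sets, with arrays of 1 age, and 0 to 1 with left-out arrays or pairs. For age in controls the 7 higher calls were 4 with the 60th percentile filter, 4 without the 4 arrays and 2 to 9 with left-out arrays or pairs, and the 13 lower calls were 8 after quantile normalization. Where no reason is given, the cause was not tested. Socs3, Bcl3 and Il1rn fall below the 60th percentile and have no value there, and a fixed litter block cannot estimate age, since each litter has 1 age. Signals near or below 29 have little precision, which limits Il1rn and Socs3 92232_at outside the 7-day KO group.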
